A study of Sus scrofa with 10 samples.

Results

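In the peripheral blood of 10 female Qingyu pigs, the 100 mRNAs that stood highest at 7 days of age relative to every other age were examined, out of 12354 mRNAs measured. There were 2 pigs at each of 5 ages, which are written as D0 for newborns, D7, D28 and D180 for piglets and growing pigs of that many days, and Y2 for sows of 2 years. All pigs were healthy, and no treatment of them was described. Each age came from different animals, and each pig gave 1 library of whole-blood RNA depleted of ribosomal RNA. Levels were given as FPKM, the fragments of a transcript relative to its length and to all mapped fragments of its library, so levels can be set side by side between genes.

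The 100 members were chosen by the values at D7 themselves. Each library was divided by 1 factor, taken as the median of the ratios between its mRNA levels and the geometric mean of each mRNA, which gave the scaled FPKM used below. The score of an mRNA was log2(D7 mean + 1) minus the largest log2(mean + 1) of the other 4 ages, and the 100 highest scores among the 12344 mRNAs with a mean deposited FPKM under 5000 were taken. Every comparison of D7 with another age in these mRNAs is therefore a description, and none was tested. A symbol was known for 81 of the 100, and the other 19 were known by Ensembl identifier only.

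The first week after birth is the time when a piglet lives on colostrum and then milk and meets its first microbes. Blood at this age holds red cells and their late precursors, granulocytes, monocytes, lymphocytes and platelets. Platelets carry no nucleus but bring RNA from the megakaryocytes that shed them, and they act in clotting through surface receptors, an actomyosin skeleton and stored coagulation factors. Granulocytes and monocytes recognise microbes through lectin and Toll-like receptors. In whole-blood RNA, fewer cells of a type and less RNA per cell cannot be told apart.

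The choice of scale decided who was highest at D7. The factors ran from 0.437 in a D0 pig to 3.03 in a D180 pig, with 0.501 and 0.539 at D7, so that the same FPKM counted 5.67 times as much at D7 as at D180. On the deposited FPKM without this scaling, 18 of the 100 members had their highest mean at D7 and 80 had it at D180. All differences below are thus relative to the median mRNA of a library. Transcripts of 15 measured erythroid marker genes, nearly all from the globin HBB, summed to 823190 and 795903 scaled FPKM at D7, against 1.09e+06 and 1.05e+06 at D0, 347967 and 334469 at D28, 47151 and 37200 at D180, and 147803 and 177581 at Y2. None of the erythroid genes was a member, and the part of red cell RNA in the scaling was not tested.

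Over the 100 members the score ran from 2.81 down to 0.70 with a median of 0.86. In plain ratios, the D7 mean was 1.64 to 20.0 times that of the next-highest age, with a median of 2.15, and it was over 2 times that age for 65 members and over 3 times for 19. Both D7 pigs stood above all 8 other pigs for 99 members. Over all mRNAs this held for 8.47%, and 15.8% had their highest mean at D7. The exception was ENSSSCG00000036600, which had 13.9 and 26.7 scaled FPKM at D7 but 14.4 in the second D28 pig. These shares follow from the choice of members and carry no further weight.

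**Figure D1:**
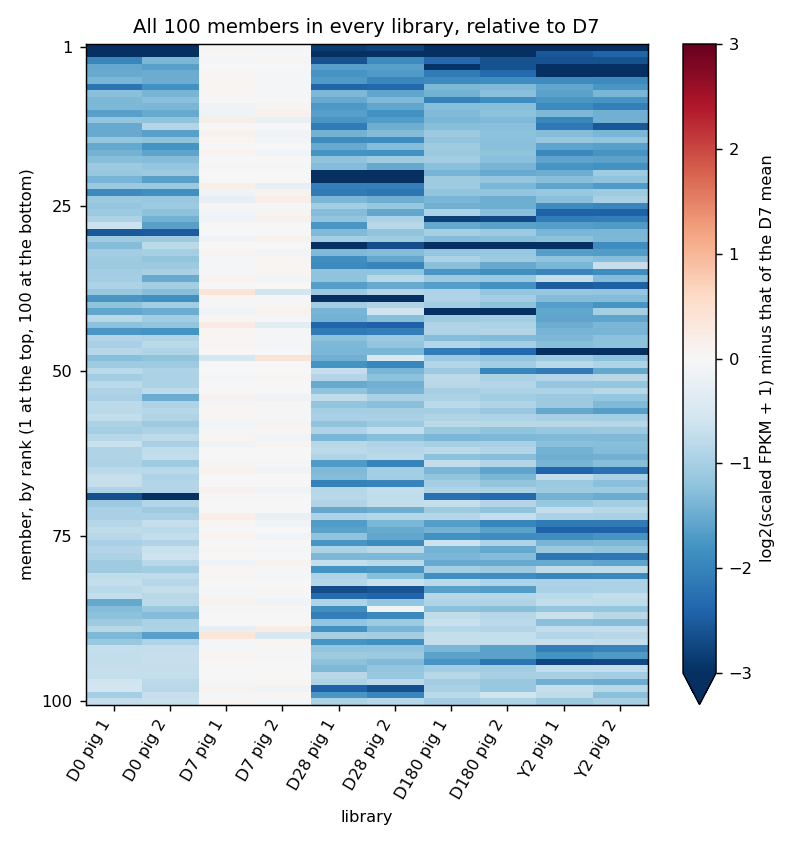
Heat map of the 100 members (rows, by rank) in the 10 libraries (columns), as log2(scaled FPKM + 1) minus that of the member's D7 mean. The D7 columns are near 0 by construction, and the depth of blue at the other ages differs between members, with the lowest mean at Y2 for 41 members and at D28 for 34.

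The age that came second also varied. It was D0 for 46 members, D180 for 22, D28 for 17 and Y2 for 15, while the lowest mean was at Y2 for 41 members, at D28 for 34, at D180 for 13 and at D0 for 12. Members were mostly low to moderate in level, with a median D7 mean of 9.997 scaled FPKM, 50 members above 10, 13 above 50 and 7 above 100. The median ratio between both D7 pigs was 1.07, and it passed 1.5 for 6 members. GRAP2, for example, an adaptor of immune receptor signalling, had 10.7 and 5.50 at D7, a gap wider than that from its D7 mean to D180 (4.56 and 4.44).

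Among members with a symbol, INMT had the highest score, although some members of lower level had a larger ratio to the next age. It encodes indolethylamine N-methyltransferase, which methylates tryptamine and related compounds, and lies at chr18:42213335-42218175 of Sscrofa11.1. INMT had 46.7 and 46.4 scaled FPKM at D7, 1.34 and 0.988 at D0, 1.51 and 1.40 at D28, 1.88 and 1.94 at D180, and 7.18 and 7.94 at Y2. The D7 mean was 6.16 times that at Y2, and pigs of an age differed little. INMT was also highest at D7 on the deposited FPKM, with 23.4 and 25.01 at D7 against 11.5 and 12.6 at Y2. The only member ranked above it, ENSSSCG00000039664, had 9.61 and 8.97 at D7 and at most 0.51 in every other library.

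Proteins of platelets and coagulation formed a recognisable group, which was drawn up by known roles after the members had been seen. Its 11 members were MYL9, MPIG6B, F5, TUBB1, SLC6A4, ESAM, FERMT3, F13A1, GP6, PTPRJ and TREML1, with D7 means from 2.03 to 115 and ratios to the next age from 1.70 to 2.90. MYL9, a regulatory light chain of non-muscle and smooth muscle myosin, had 68.6 and 63.5 at D7, 22.4 and 23.1 at D0, 18.7 and 19.6 at D28, 14.6 and 12.3 at D180, and 7.202 and 6.84 at Y2. TUBB1, the beta-tubulin of the platelet's marginal band, had 68.7 and 69.6 at D7, 35.3 and 33.2 at D0, 21.5 and 23.7 at D28, 21.2 and 19.1 at D180, and 11.4 and 11.7 at Y2. For both genes the D7 pigs were apart from the rest and the Y2 pigs were the lowest.

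F13A1, the catalytic subunit of the clot-linking factor XIII, was the most abundant of the group at 115 in each D7 pig, with 67.5 and 65.4 at D0 and 20.7 and 20.8 at Y2. F5, coagulation factor V, had 18.6 and 19.6 at D7 and was lowest at D28 with 4.58 and 5.90. GP6, the platelet collagen receptor, had 6.504 and 6.58 at D7, 2.92 and 3.94 at D0 and 0.672 and 0.700 at Y2. TREML1, a receptor held in platelet alpha granules, and MPIG6B, an inhibitory receptor of the megakaryocyte lineage, had the same order of extremes, with D7 highest and Y2 lowest (17.5 and 17.0 against 1.76 and 1.803, and 12.4 and 13.9 against 1.62 and 1.62). SLC6A4, the serotonin transporter, had 6.24 and 6.63 at D7 and 1.36 and 1.18 at Y2, and FERMT3, or kindlin-3, which activates integrins, had 44.9 and 44.4 at D7 and 16.2 and 17.5 at Y2.

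**Figure D2:**
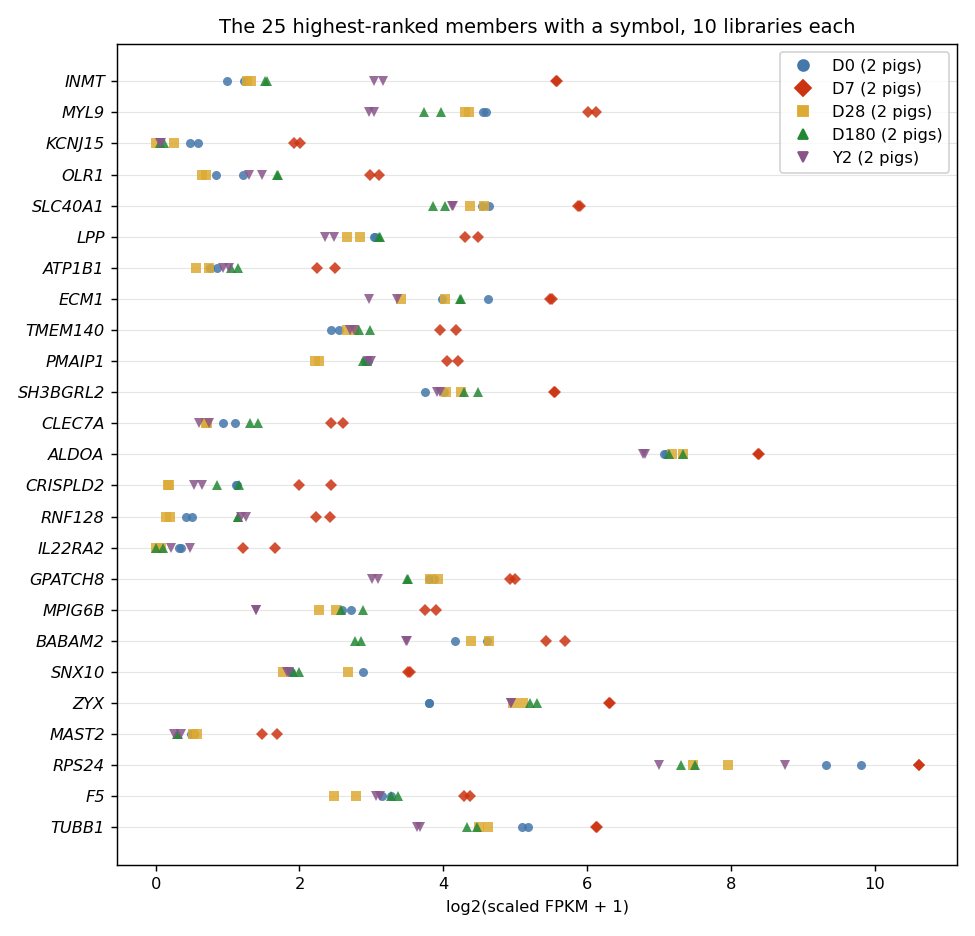
Levels of the 25 highest-ranked members with a symbol, as log2(scaled FPKM + 1), with 1 point for each of the 10 pigs and a colour and shape for each age. The D7 diamonds lie to the right of all other points in each row, with the widest gap for INMT.

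The wider set of platelet and megakaryocyte markers did not stand highest at D7 as a sum. Of 14 listed markers 10 were measured, and 3 of them (GP6, TREML1, TUBB1) were members. The summed level was 358 and 364 at D7, 374 and 367 at D0, 143 and 147 at D28, 112 and 98.95 at D180, and 55.3 and 58.1 at Y2. Both D0 pigs lay above both D7 pigs, and the sum was smaller at each later age. By gene, 6 of the 10 had their highest mean at D7 and 4 at D0. PPBP, the chemokine that took most of the sum, had 252 and 249.8 at D0 and 184 and 188 at D7, whereas TUBB1 at D7 was 2.02 times its level at D0. The order of the sums at D0 and D7 thus rests on PPBP.

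Actin and adhesion proteins made up 8 members by known role, with D7 means from 2.84 to 1613. ZYX, or zyxin, a LIM-domain protein of focal adhesions, had 77.8 and 78.5 at D7, 12.9 and 13.01 at D0, 30.5 and 33.5 at D28, 38.5 and 36.0 at D180, and 29.8 and 29.8 at Y2. LPP, its close relative, had 18.7 and 21.5 at D7, 7.28 and 7.17 at D0, 5.35 and 6.18 at D28, 7.71 and 7.64 at D180, and 4.60 and 4.10 at Y2. D0 was the lowest age for ZYX, as for 12 members in all, while LPP was lowest at Y2. ACTB, cytoplasmic beta-actin, had 1606 and 1619 at D7 and 925 and 845 at D0, and ACTA2, a smooth muscle actin, had 3.23 and 3.08 at D7 and 0.0697 and 0.0956 at Y2. Actins have near-identical copies, as does RPS24, a ribosomal protein of the small subunit with 1571 and 1564 at D7 and 640 and 896 at D0, so that reads may be split between copies and these levels are uncertain.

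Receptors and adaptors of innate immunity supplied 12 members by known role, again grouped after the members had been seen. A pair of C-type lectin receptors headed them. OLR1, which binds oxidised low-density lipoprotein, had 7.58 and 6.90 at D7, 0.789 and 1.33 at D0, 0.557 and 0.619 at D28, 2.22 and 2.27 at D180, and 1.79 and 1.46 at Y2. CLEC7A, or dectin-1, which binds fungal beta-glucan, had 5.08 and 4.42 at D7, 1.16 and 0.921 at D0, 0.646 and 0.621 at D28, 1.68 and 1.49 at D180, and 0.514 and 0.674 at Y2. For both, D180 was the second age and the levels were all low outside D7.

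OLR1 and CLEC7A were also neighbours in the genome, 23219 bp apart on chromosome 5 (chr5:61799356-61809691 and chr5:61832910-61846441). A further member, TMEM52B, lay 10731 bp from OLR1 on its other side, with 1.91 and 1.92 at D7, 0.563 and 0.761 at D0 and 0.0484 and 0.0707 at Y2. Of the 80 members placed on the genome, these were the only ones within 100 kb of another member. FCER1G, the signalling chain shared by Fc receptors, was the most abundant innate member, at 102 and 101 at D7 against 62.3 and 61.1 at D0. IL22RA2, a secreted protein that captures interleukin 22, was low at D7 (1.33 and 2.17) and at most 0.389 in every other pig.

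Of the 15 measured pattern recognition receptors, CLEC7A was the only member, and 9 had their highest mean at D7. Their summed level was 53.1 and 54.3 at D7, 32.8 and 31.6 at D0, 14.6 and 15.6 at D28, 43.7 and 41.9 at D180, and 34.1 and 35.2 at Y2. Of 46 listed neutrophil and 14 monocyte markers, 25 and 8 were found by symbol. None of those found was a member, although 11 and 5 of them had their highest mean at D7. Since 19 members had no symbol, a marker that was not found could still be among them. The neutrophil sum was 574 and 554 at D7 against 1821 and 2104 at D0, most of the latter from ARG1, and the monocyte sum was 109 and 110 against 194 and 210. Most of the monocyte sum came from LYZ, which is also on the neutrophil list. LYZ had 62.8 and 63.4 at D7 and 161 and 178 at D0, so the order of the monocyte sums at these ages is that of 1 gene. None of the 13 measured T cell, 13 B cell, 13 NK cell or 30 interferon-stimulated genes was a member, and 1, 0, 0 and 14 of them were highest at D7. What share of the members' level at D7 came with these cell types was not tested.

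**Figure D3:**
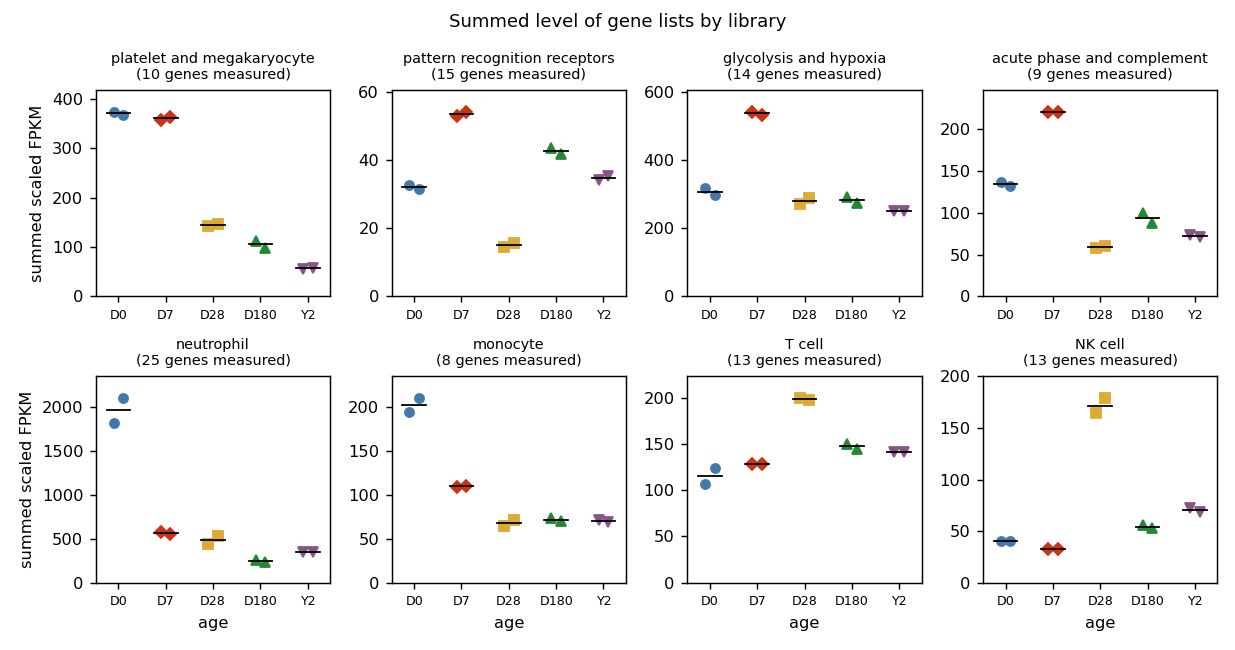
Summed scaled FPKM of 8 gene lists in each pig (points) with the mean of each age (bars), on axes that start at 0. The pattern recognition, glycolysis and acute phase sums are highest at D7, the platelet, neutrophil and monocyte sums at D0, and the T and NK cell sums at D28. Single genes weigh on several sums: PPBP on the platelet, ARG1 on the neutrophil, LYZ on the monocyte, ALDOA on the glycolysis and F13A1 on the acute phase sum. ALDOA and F13A1 are members, chosen by their values at D7.

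Enzymes and transporters of lipid, iron and other small molecules, INMT among them, made up 15 members by known role. SLC40A1, or ferroportin, the exporter of cellular iron, had 58.8 and 57.5 at D7, 22.2 and 23.9 at D0, 19.6 and 22.6 at D28, 13.5 and 15.3 at D180, and 16.6 and 16.4 at Y2. It was the only member among 13 measured genes of iron and haem, of which 7 were highest at D0 and 5 at D7. ALDOA, aldolase of glycolysis, had 333 and 334 at D7, 136 and 134 at D0, 143 and 160 at D28, 160 and 140 at D180, and 111 and 108 at Y2. Of 14 measured glycolysis and hypoxia genes 9 were highest at D7, and ALDOA alone was a member. It supplied much of their summed level, 541 and 532 at D7 against 317 and 296 at D0.

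CKB, a creatine kinase, had 158 and 156 at D7 and 12.02 and 12.5 at Y2, with 86.0 and 84.0 at D0. HPGDS, the haematopoietic synthase of prostaglandin D2, was the faintest member, with 0.928 and 0.941 at D7 and at most 0.211 elsewhere, and was listed at 0 in both Y2 pigs. It was 1 of 11 measured lipid mediator genes, of which 4 were highest at D7. SOD2, the mitochondrial superoxide dismutase, had 30.1 and 31.6 at D7, 17.1 and 18.5 at D0, 4.02 and 4.32 at D28, 9.24 and 9.02 at D180, and 15.3 and 15.4 at Y2, so that D28 held its lowest level. Coagulation factors F5 and F13A1 were the 2 members among 9 measured acute phase and complement genes, whose sum was 220 in each D7 pig and 136 and 131 at D0. F13A1, chosen for its level at D7, alone supplied 115 of the sum in each D7 pig.

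Channels and pumps were few. KCNJ15, an inward-rectifier potassium channel, had 3.01 and 2.80 at D7, 0.501 and 0.393 at D0, and at most 0.198 in the 6 older pigs. ATP1B1, a subunit of the sodium pump, had 3.73 and 4.62 at D7, 0.682 and 0.806 at D0, 0.666 and 0.476 at D28, 1.07 and 1.21 at D180, and 1.02 and 0.915 at Y2. Both were near the bottom of the scale outside D7.

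Ubiquitin ligases and cell death proteins gave 7 members. PMAIP1, the BH3-only protein Noxa, which promotes apoptosis, had 17.4 and 15.6 at D7, 6.78 and 6.54 at D0, 3.64 and 3.81 at D28, 6.71 and 6.35 at D180, and 6.94 and 6.74 at Y2. RNF128, a membrane-bound ubiquitin ligase, had 3.69 and 4.39 at D7, 0.337 and 0.414 at D0, and 1.28 and 1.40 at Y2, while RNF13, a ligase of the same RING type, had 9.01 and 12.9 at D7 and 5.77 and 5.24 at D0. BABAM2, a subunit of a BRCA1-associated complex, had 42.2 and 50.8 at D7, 23.5 and 16.9 at D0, 19.8 and 23.8 at D28, and 5.802 and 6.23 at D180. Its level at D180 was thus the lowest.

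Other high-ranked members were of mixed function. ECM1, a secreted matrix glycoprotein, had 44.6 and 43.9 at D7 but 14.9 and 23.5 in the D0 pigs, and CRISPLD2, a secreted protein that binds lipopolysaccharide, had 4.42 and 2.97 at D7 and at most 1.24 elsewhere. SH3BGRL2 had 45.9 and 45.4 at D7 and 21.3 and 18.6 at D180, TMEM140 had 17.0 and 14.5 against 6.91 and 6.12 at D180, and GPATCH8 had 30.8 and 29.5 against 14.2 and 13.1 at D28. SNX10, a sorting nexin of endosomes, had 10.6 and 10.4 at D7, and its D0 pigs were unlike each other at 6.37 and 2.70. MAST2, a microtubule-associated kinase, had 1.79 and 2.22 at D7 and at most 0.486 elsewhere.

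Near the threshold the members were close to the mRNAs left out. The last 5 inside were FBXL12, NAPA, CDA, CCL14 and KCNAB3, with scores from 0.70 to 0.696, and ILK, RNF152, OS9 and SOCS3 lay just outside, with scores from 0.691 to 0.684. NAPA, which takes SNARE complexes apart, had 34.3 and 37.4 at D7 and 23.2 and 20.1 at D0, and ILK, or integrin-linked kinase, an adaptor of focal adhesions, had 31.4 and 30.7 at D7 and 19.7 and 18.0 at D0.

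How members behaved between ages that exclude D7 was then tested, since the rule puts a ceiling on the other ages but no order among them. limma with Benjamini-Hochberg adjustment over all 12354 mRNAs was used, and calls were limited to an adjusted p up to 0.05 with a change of 1.5 or more, either way, on the log2(scaled FPKM + 1) scale, which understates changes of low mRNAs. With this limit few members were called. From D0 to D28, 1 member was called higher and 6 lower, against 0.931% and 3.08% of all mRNAs. From D28 to D180, 3 were higher and 2 lower, against 0.437% and 2.59%, and from D180 to Y2, 2 were higher and 0 lower, against 0.0809% of all called lower and 0.445% called higher. By limma's adjusted p alone, 30 members were lower at Y2 and 9 higher, against 3.95% and 7.47% of all mRNAs. The split between higher and lower moved with the scale. On the deposited FPKM the calls were 3 higher and 0 lower from D0 to D28, against 4.73% and 0.389% of all mRNAs, 41 and 1 from D28 to D180, against 17.8% and 0.898%, and 1 and 12 from D180 to Y2, against 0.105% and 1.25%. With the 10 most abundant mRNAs removed and the rest set to 1 total they were 2 and 0, against 3.92% and 0.55%, 15 and 1, against 2.02% and 1.78%, and 2 and 2, against 0.38% and 0.202%.

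AGTPBP1, an enzyme that trims glutamate from tubulin tails, was the member that rose from D0 to D28. It had 2.91 and 2.11 scaled FPKM at D0 and 12.6 and 13.4 at D28, a log2 fold change of 2.01 ± 0.11 (SE, 2 pigs per age, limma adjusted p = 1.92e-06), and it fell again to 4.12 and 3.81 at D180 (-1.50 ± 0.11, below the limit by a small margin). SOD2 fell by 1.86 on the log2 scale (SE 0.07, limma adjusted p = 3.03e-07). RPS24 fell by 1.85 with a wide error (SE 0.47, limma adjusted p = 0.0116). CDA, cytidine deaminase, fell from 10.1 and 8.29 to 2.08 and 1.67, and P2RY13, an ADP receptor, from 5.35 and 4.87 to 1.14 and 1.03. The pigs of D0 and D28 did not overlap for any of these 5 genes. The remaining calls were ENSSSCG00000016184 and ENSSSCG00000016183, which had no symbol.

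From D28 to D180, TGFBI, a secreted matrix protein made by monocytes among other cells, rose from 2.32 and 2.07 to 13.4 and 12.4, a log2 fold change of 2.12 ± 0.07 (limma adjusted p = 1.28e-07). The pair without a symbol that had fallen by D28 rose back, by 2.34 and 2.02 on the log2 scale. BABAM2 fell by 1.70 (SE 0.15, limma adjusted p = 6.66e-05), and ENSSSCG00000034499 fell from 58.1 and 101 to 7.69 and 8.74. From D180 to Y2, ENSSSCG00000034499 rose to 52.0 and 76.8, and INMT rose by 1.56 ± 0.09 (limma adjusted p = 2.53e-05).

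Without the fold change limit, an alternative added after the data had been seen, smaller and more numerous changes passed. From D0 to D28, 52 members were lower and 2 higher by the adjusted p alone, against 28% and 22.2% of all mRNAs. The members' median log2 fold change was -0.29 and that of all mRNAs -0.00. The 2 higher members were AGTPBP1 and ZYX (1.24 ± 0.07). From D28 to D180, 35 members were higher and 19 lower, against 14.4% and 18% of all mRNAs, with medians of 0.06 and -0.02. From D180 to Y2, 30 were lower and 9 higher, against 3.95% and 7.47% of all, with medians of -0.13 and 0.01. Members had higher levels than the table as a whole, and the part of level in these shares was not tested. On the deposited FPKM the median of all mRNAs itself moved by 0.51, 1.07 and -0.65 on the log2 scale in these comparisons. The members were then 59 higher and 8 lower, 86 and 2, and 3 and 84, where all mRNAs had 66.9% and 5.92%, 90.6% and 3.32%, and 2.49% and 84.6%, so that these counts are near the background and say nothing particular of the members. With the 10 most abundant mRNAs removed, the median moved by 0.45, 0.39 and -0.13, and the members were 52 higher and 8 lower, 65 and 11, and 4 and 43, where all mRNAs had 63.4% and 7.89%, 63.3% and 6.96%, and 6.29% and 17.1%. The fall by D28 was thus relative to the median mRNA.

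**Figure D4:**
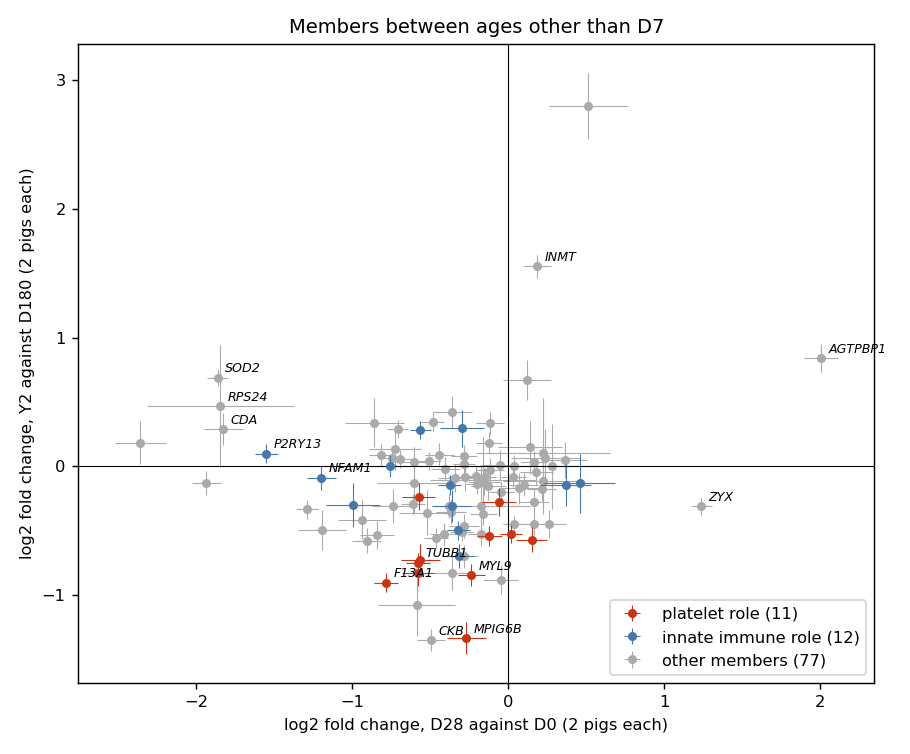
Log2 fold change from D180 to Y2 (y axis) against that from D0 to D28 (x axis) for the 100 members, with bars of 1 SE from limma, 2 pigs per age. The 11 members with a platelet role (red) all lie below 0 on the y axis. The highest point on that axis is ENSSSCG00000034499 at 2.80, and INMT lies at 1.56.

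The groups by role, drawn up after the members had been seen, are described by their counts, and no difference between roles was tested. Of the 11 platelet and coagulation members, 9 were lower at Y2 than at D180 and none was higher by limma's adjusted p alone, with a median log2 fold change of -0.72. Among all members 30 of 100 were lower, and among all mRNAs 3.95%, with a median of 0.01. On both other scales 11 of the 11 were lower, where all mRNAs had 84.6% lower on the deposited FPKM and 17.1% with the 10 most abundant removed. The group's medians there were -1.59 and -0.96, beside -0.65 and -0.13 for all mRNAs. MPIG6B fell by 1.33 (SE 0.12, adjusted p = 0.000272), F13A1 by 0.90, MYL9 by 0.84, GP6 by 0.83, TUBB1 by 0.75 and TREML1 by 0.72. ESAM, an adhesion molecule of platelets and endothelium, had -0.28 (adjusted p = 0.16), and F5 had -0.23 (adjusted p = 0.216). On the platelet list, 8 of the 10 measured markers were lower at Y2. These include GP6, TREML1 and TUBB1, which are also among the 11 members, so the list is not separate from the group. From D0 to D28, 6 of the 11 members were lower, against 28% of all mRNAs, but 10 were higher on each of the other scales, so this direction depended on the scaling. CKB, no platelet marker by that list, fell by 1.35 from D180 to Y2.

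Of the 12 innate immune members, 9 were lower at D28 than at D0 and 8 were higher at D180 than at D28 by limma's adjusted p alone, with medians of -0.37 and 0.78. The shares of all mRNAs were 28% and 14.4%, with medians of -0.00 and -0.02, and 52 and 35 of the 100 members passed in these directions. On the deposited FPKM 11 were higher at D180, but so were 90.6% of all mRNAs, and with the 10 most abundant mRNAs removed 10 were, beside 63.3% of all. The fall by D28 was called for 2 on either of these scales, with 4 and 3 higher. NFAM1, an ITAM-bearing receptor, fell by 1.20 and rose by 0.90, GAB2, a docking adaptor, fell by 0.76 and rose by 1.08, and P2RY13 fell by 1.55 and rose by 1.48. CD101, an inhibitory receptor of myeloid and T cells, had log2 fold changes of -0.32 and 1.19, OLR1 of -0.36 and 1.03, and CLEC7A of -0.32 and 0.66. All of these passed the adjusted p alone, and only the fall of P2RY13 reached the fold change limit. IL4R, a subunit of the interleukin 4 receptor, had 0.37 (adjusted p = 0.0922) and -0.13 (adjusted p = 0.596). Over the same ages, on the scaled FPKM, 19 of 25 measured neutrophil markers and 5 of 8 monocyte markers were lower at D28 than at D0, and 15 and 7 were higher at D180 than at D28, while 10 of 13 NK cell markers were higher at D28 and 10 lower at D180. The part of these cells in the members' course was not tested.

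Across members, 18 were lower both at D28 than at D0 and at Y2 than at D180, comparisons that share no library, and 31 passed in neither. Over all mRNAs 1.28% were lower in both. Since 52 and 30 members were lower in the single comparisons, the joint count is given as a description alone. A further 30 were lower in the first comparison alone and 11 in the second alone. AGTPBP1 was higher in both. ZYX was higher at D28 and lower at Y2, and 4 members, among them SOD2 and FCER1G, were lower at D28 and higher at Y2.

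The levels of lncRNAs did not enter the choice of members, but a lncRNA that overlaps a member may share its reads. Within 100 kb of the 80 placed members, 81 of the 5946 lncRNAs were found, beside 44 members. They were tested by limma on log2(scaled FPKM + 0.1), for D7 against the mean of the other 4 ages, and called at an adjusted p up to 0.05 and a change of 1 or more on the log2 scale. By this rule 11 were higher and 2 lower at D7, against 3.97% and 1.29% of all lncRNAs. Among the 20 that overlapped 15 members, 7 were higher and none was lower, and 11 had their highest mean at D7, which was 55% against 18.4% of all lncRNAs. Over all 81, 22 (27.2%) had their highest mean at D7, and 11 of these were the overlapping ones. Among the lncRNAs that lay apart, the share highest at D7 was near that of all lncRNAs. Most of the 11 called higher thus overlapped a member. Those called higher that lay apart were near ZYX, BAG1, SLC6A4 and IL22RA2. The lncRNA near SLC6A4 was low even at D7, with 0.215 and 0.341 scaled FPKM. Over the 81, the number called higher was 4 without the first D7 pig, 5 without the second D7 pig and 7 without the first D180 pig. On the deposited FPKM it was 3 higher and 13 lower, against 1.61% and 22% of all lncRNAs.

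**Figure D5:**
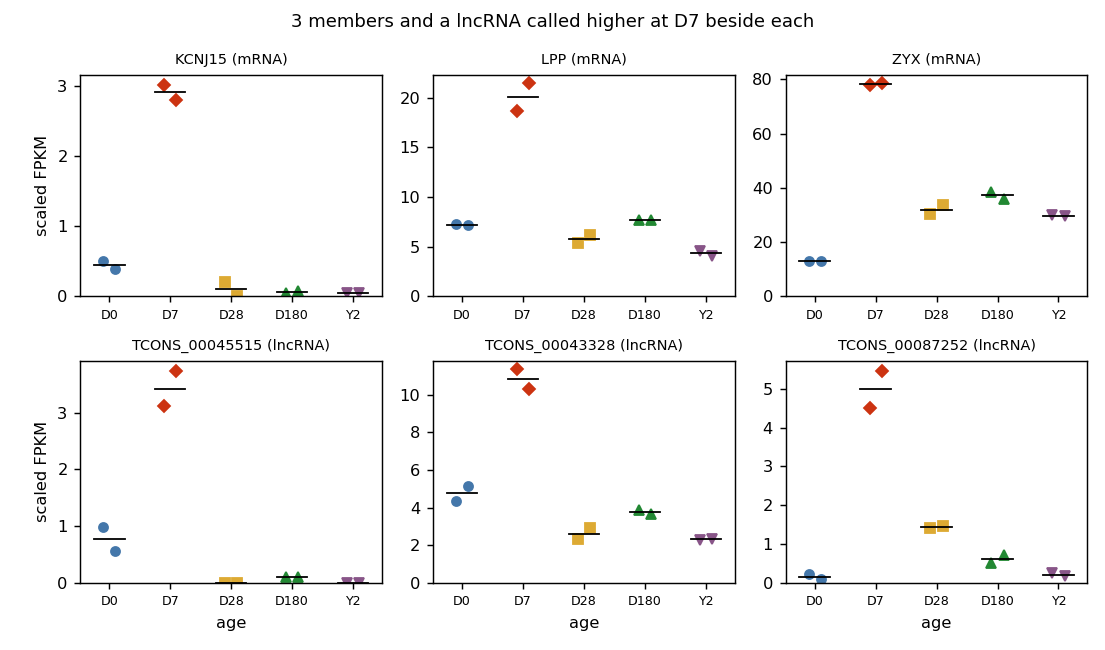
Scaled FPKM of KCNJ15, LPP and ZYX (upper panels) and of a nearby lncRNA called higher at D7 (lower panels), with a point for each pig and a bar for the mean of each age. In all 6 panels both D7 pigs lie above the other 8, while the order of the remaining ages differs between ZYX and its lncRNA.

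TCONS_00045515, inside KCNJ15 at chr13:201920962-201933182 on the plus strand, had 3.12 and 3.73 scaled FPKM at D7, 0.979 and 0.562 at D0, 0.0959 and 0.103 at D180, and was listed at 0 in the D28 and Y2 pigs. Its log2 fold change was 4.12 ± 0.23 (limma adjusted p = 0.000145). Around LPP, TCONS_00043328 (chr13:126460263-126478933, plus strand) had 11.4 and 10.3 at D7, 4.36 and 5.14 at D0, and 2.34 and 2.89 at D28, a log2 fold change of 1.72 ± 0.13. It spans the end of the LPP gene. The gene table used here gave no strand for the members, so that reads of an overlapping lncRNA and of the mRNA may have been shared, and the overlap adds less than a separate transcript would.

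TCONS_00087252 lay clear of ZYX, 20659 bp away at chr18:6890915-6891337. It had 4.51 and 5.46 at D7, 0.213 and 0.104 at D0, 1.41 and 1.46 at D28, 0.513 and 0.719 at D180, and 0.257 and 0.165 at Y2, a log2 fold change of 3.23 ± 0.22 (limma adjusted p = 0.000324). Its second age was D28, whereas that of ZYX was D180. TCONS_00149992 and TCONS_00149991, both in CRISPLD2, had log2 fold changes of 2.63 ± 0.45 and 1.83 ± 0.31, and TCONS_00131209, in NFAM1, had 1.61 ± 0.21. TCONS_00023041, 8778 bp from BAG1, a co-chaperone that binds BCL2, was called higher against the mean of the other ages (2.06 ± 0.30) but had 17.3 and 20.5 at D0 against 17.4 and 17.2 at D7, so that D0 and D7 overlapped. The 2 called lower were TCONS_00107560, 33295 bp from ACTB, and TCONS_00149974, 95433 bp from CRISPLD2. Both were at or near 0 at D7. Other transcripts on the strand and span of TCONS_00149974 were not called and went different ways. TCONS_00149979 had its highest mean at D7, with 0.741 and 0.614, and TCONS_00149971 at Y2.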

How the data were processed

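Whole-blood RNA of 10 pigs, 2 at each of 5 ages, was analysed from 2 tables that the authors deposited as FPKM, 1 for mRNAs (12354 rows) and 1 for lncRNAs (5946 rows). Per the labels and the study's methods, reads were aligned with HISAT2 2.0.4 to Sscrofa11.1, and levels came from StringTie 1.3.3 and Cufflinks 2.2.1, with CASAVA 1.8.2 also named in the submitters' processing notes. FPKM are not counts, so the depth behind a value is unknown and the number of pigs limits precision.

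Libraries were divided by median-of-ratios factors over the 11527 mRNAs above 0 in all libraries, and lncRNAs by the same factors, a step that takes the typical mRNA as unchanged. The members and the gene lists were chosen with earlier results of these data known. The named genes were the 25 members with a symbol of highest score, members on a list, members called between other ages, members in 1 gene family or within 100 kb of each other, and 5 on each side of rank 100, of which 1 is not reported here. Other genes named, including some known only by identifier, and the groups by role were chosen after their values had been seen. Tests used limma 3.58.1 in R 4.3.3 with a trend and all 5 ages in the fit (5 residual degrees of freedom), with pseudocounts of 1 for mRNAs and 0.1 for lncRNAs, and were tested on simulated data. Symbols came from a table of Ensembl identifiers, and positions from RefSeq on Sscrofa11.1 by symbol.

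Pig numbers are labels only, since same-numbered pigs are different animals. Alternatives were other scalings, pseudocounts and filters, the 2 compared ages alone, no trend, the pig number as a block, and each pig left out. Sequences were not used here. Tables were handled with Python 3.11.15, pandas 2.3.3 and numpy 2.4.6.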

Additional observations from a re-analysis of the deposited data

How the results depend on the processing

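With the deposited FPKM in place of scaled values, 20 of the 100 members stayed in the top 100, and D7 was no longer the highest age for 19 of the 25 members named by score. The log2 excess of D7 over the next age was then -0.20 for MYL9, -0.68 for OLR1, -0.48 for SLC40A1, -1.05 for LPP, -0.46 for ATP1B1, -1.16 for ECM1, -1.13 for TMEM140, -1.08 for PMAIP1, -1.27 for SH3BGRL2, -0.71 for CLEC7A, -1.35 for ALDOA, -0.46 for CRISPLD2, -0.56 for RNF128, -0.92 for GPATCH8, -1.17 for MPIG6B, -0.55 for SNX10, -1.41 for ZYX, -1.33 for F5 and -0.71 for TUBB1. With the 10 most abundant mRNAs removed 33 stayed, and the excess was -0.080 for ZYX and -0.061 for F5. A pseudocount of 0.1 kept 65, and leaving out 1 pig at a time kept 83 to 99. Choosing by the pigs numbered 1 alone kept 80, and by those numbered 2 alone 74, but these pigs had also entered the choice of the members. The 2 choices shared 58 mRNAs with each other. These last choices, and all counts by the adjusted p alone, were added after seeing the data. The cause of the changes was not tested.

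From D0 to D28, members called higher and lower numbered 1 and 6 as reported, 3 and 0 on the deposited FPKM and 2 and 0 with the 10 most abundant mRNAs removed, and 12 were lower with a pseudocount of 0.1. By the adjusted p alone they numbered 59 and 8, and 52 and 8, on these other scales. From D28 to D180 the calls were 41 and 1 on the deposited FPKM, 15 and 1 with the 10 removed, and 12 and 6 with a pseudocount of 0.1, and by the adjusted p alone 86 and 2, and 65 and 11. From D180 to Y2 they were 1 and 12 on the deposited FPKM, with 2 lower after the 10 were removed and 2 lower with a pseudocount of 0.1, and by the adjusted p alone 3 and 84, with 4 higher after the 10 were removed. SOD2 from D0 to D28 (-0.81 and -0.96), BABAM2 from D28 to D180 (-0.26 and -1.11) and, on the deposited FPKM alone, INMT from D180 to Y2 (0.98) were no longer called. The lncRNAs near members called higher and lower were 3 and 13 on the deposited FPKM and 4 and 0 with a pseudocount of 1, and 7 and 0 counting overlapping lncRNAs alone.

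With 1 pig left out at a time, calls from D0 to D28 were 1 higher and 5 to 6 lower, and by the adjusted p alone 2 to 5 higher (5 without either D0 pig or without the first D28 pig) and 42 to 49 lower. From D28 to D180 they were 3 to 5 higher (5 without the first D28 pig) and 2 to 3 lower, and by the adjusted p alone 26 to 35 and 15 to 20. From D180 to Y2 they were 1 to 2 higher (1 without the second Y2 pig, when INMT had 1.49) and 0 lower, and by the adjusted p alone 4 to 8 higher (5 and 4 without the first and second D180 pig, 4 without the second Y2 pig) and 18 to 30 lower (18 without the first Y2 pig). For lncRNAs the counts were 4 to 11 higher and 0 to 2 lower. An age left with 1 pig was assumed to vary like the others.

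Pig numbers did not pair the samples, since the correlation of same-numbered deviations ran from -0.09 to 0.06. With the number as a replicate block, 4 members were higher from D0 to D28 by the adjusted p alone, in place of 2, and 0 lncRNAs were lower, in place of 2, while 8 were higher. Every other count of members moved by under 1.5 times.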
